A study of Mus musculus with 9 samples.

Results

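The zinc finger genes described here were the mouse genes named Zfp followed by a number whose mean read count over the 9 liver libraries was at least 50. Of 21936 genes in the deposited table, 368 carried such a name, and 161 of these reached the mean of 50. The other 207 did not, and 19 of them had no reads at all. The genes were thus chosen by their name and their mean count over all 9 libraries, not by a contrast between groups. A weakly counted gene can still reach this mean through the group in which it is higher. Zfp40, Zfp292, Zfp608 and Zfp704, described below, reached it through their NaCl libraries. Zfp948 and Zfp872, also described below, reached it through their retrorsine libraries. Zfp689 (49.1 reads) and Zfp944 (48.4) fell just short, and Zfp74 (50) and Zfp40 (50.7) were just included. All 161 also passed the filter on low counts that was applied to the whole table.

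The libraries came from poly(A) RNA of livers of wild-type (WT) mice. One group received NaCl by intraperitoneal injection, the second retrorsine at 25 mg/kg and the third retrorsine at 50 mg/kg, and liver was taken 2 h later. Each group had 3 libraries. Retrorsine, a plant toxin of the pyrrolizidine alkaloid class, becomes a reactive pyrrole through liver cytochrome P450 enzymes. Whether a group's libraries stem from different mice is not stated in the labels, so the p-values measure only the spread between these libraries.

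Most Zfp genes encode proteins with C2H2 zinc fingers, short folds in which 2 cysteines and 2 histidines hold a zinc ion and a helix reads a few base pairs of DNA, so that arrays of fingers recognise longer sites. Many also carry a KRAB box, a domain that recruits the corepressor TRIM28 and with it enzymes that set repressive chromatin, and much of this class silences retroelements or imprinted loci. Others have no KRAB box and act as activators or cofactors at promoters. A few bind RNA or act on ribosomes rather than on genes.

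To show what the name stands for, 1 finger unit was read from the coding sequence of the KRAB-bearing Zfp948 and Zfp954 and the KRAB-lacking Zfp622, which rose with retrorsine, of Zfp40 and Zfp292, which fell, and of Zfp36, which is not of the C2H2 type. Capitals mark the codons of the zinc-binding residues, cysteine, cysteine, histidine and histidine in the first 5, and 3 cysteines and a histidine in Zfp36.
Zfp948: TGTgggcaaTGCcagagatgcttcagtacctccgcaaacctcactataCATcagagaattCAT
Zfp954: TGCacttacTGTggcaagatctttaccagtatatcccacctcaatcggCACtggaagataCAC
Zfp622: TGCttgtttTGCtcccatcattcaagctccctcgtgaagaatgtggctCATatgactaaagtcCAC
Zfp40: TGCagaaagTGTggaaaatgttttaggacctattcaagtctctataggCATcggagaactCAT
Zfp292: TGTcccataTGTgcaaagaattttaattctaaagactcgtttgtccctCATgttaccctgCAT
Zfp36: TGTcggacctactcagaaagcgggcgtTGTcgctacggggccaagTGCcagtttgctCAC
In GRCm38 these lie at chr17:21587193-21587255 (plus strand), chr7:7115884-7115946 (minus), chr15:25986920-25986985 (plus), chr17:23176871-23176933 (minus), chr4:34811291-34811353 (minus) and chr7:28378158-28378217 (minus), each within 1 coding exon of GENCODE M21.

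The name was checked against the coded proteins. A C2H2 match (C, 2 to 4 residues, C, 12 residues, H, 3 to 5 residues, H) was found in 156 of the 161, with a median of 9 matches and a maximum of 36 in Zfp142. The 5 without one were Zfp36, Zfp330, Zfp703, Zfp750 and Zfp839, so the name does not mark a C2H2 DNA-binding protein in every case. A KRAB signature was found in 63 of 161 (39.1%), against 153 of 203 (75.4%) of the Zfp-named genes with a coding sequence that stayed below the count minimum. KRAB-bearing genes had a median of 12 fingers and the others a median of 7. The signature is a set of short patterns, so a KRAB box that departs from them is missed. KRAB-bearing here means with a match, and a gene without a match, such as Zfp746, may still hold a KRAB box.

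The Zfp genes were weakly expressed in liver. Their median FPKM, a level per length of transcript, was 2.2, against 4.73 for the 9790 other tested genes with a mean count of at least 50, and 41 of 161 stayed under 1 FPKM. Together they took 0.237%, 0.257% and 0.255% of all counts in the NaCl libraries. The share was 0.299%, 0.267% and 0.307% at the lower dose and 0.312%, 0.289% and 0.267% at the higher one. Each retrorsine library thus lay above every NaCl library in this share. The share is weighted by the most abundant genes. Zfp36 alone stood at 430 CPM (counts scaled to a common library size) in 50 mg/kg replicate 3 and 68.9 CPM in NaCl replicate 2. Without Zfp36 this order did not hold, since the share of 50 mg/kg replicate 3 was then below that of NaCl replicate 2. Nor did it hold for the median centred log2 CPM of the 161 genes, given below, at -0.15 and -0.09 in these libraries. The highest mean levels were those of Zfp36 (52.8 FPKM), which encodes tristetraprolin, a protein that binds AU-rich mRNAs and hastens their decay, Zfp598 (36.1), a ubiquitin ligase that senses collided ribosomes, Zfp771 (18.5), Zfp706 (16.8) and Zfp970 (15.8). None of these 5 rose. Zfp706 and Zfp970 share 92.2% and 52.2% of their coding 50-base words with another gene, so their counts are uncertain.

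Total counts per library ran from 15241261 to 18691736. Hepatocyte markers were high in every library, with 117000 to 153000 CPM summed over 8 genes. Summed CPM of 11 exocrine pancreas genes was 238 to 5040 in NaCl libraries, 11.2 to 18.2 at the lower dose and 10.1 to 311 at the higher one, so pancreatic transcripts moved with the groups. Without NaCl replicate 1 and 50 mg/kg replicate 2, which held most of them within their groups, the median log2 fold change of the Zfp genes was 0.25 and 0.28 at the 2 doses, against 0.28 and 0.27 with them. Lymphocyte markers summed to 0.973 to 1.44 CPM in NaCl libraries, 2.11 to 5.02 at the lower dose and 4.82 to 38.1 at the higher one, and neutrophil and monocyte markers reached 164 CPM in 50 mg/kg replicate 3 against 8.53 to 28.5 elsewhere. The part of these cells in the results was not tested. In bulk liver, fewer cells of a type and less RNA per cell cannot be told apart.

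At 25 mg/kg, 17 of the 161 Zfp genes were higher than with NaCl (10.6%, against 5.9% of all tested genes) and 7 were lower (4.35%, against 7.56%), by edgeR's quasi-likelihood test with a Benjamini-Hochberg adjusted p under 0.05 over 12557 genes. Direction leaned the same way without any threshold, since 114 Zfp genes (70.8%) had a log2 fold change above 0, against 50.8% of all tested genes. The median log2 fold change was 0.28 for the Zfp genes and 0.01 for all genes. In 51 Zfp genes (31.7%, against 17.7% of all tested genes) every 25 mg/kg library was above every NaCl library, and in 11 (6.83%, against 18.8%) every one was below. In both directions together this made 62 (38.5%, against 36.5%), and an unadjusted p under 0.05 was found for 54 (33.5%, against 28.6%), so the Zfp genes differed from the background in direction more than in number. All calls together, 24 (14.9%, against 13.5%), were near the background. Of the 9951 tested genes with a mean count of at least 50, 6.78% rose and 8.71% fell, 15.5% in all. The count of rises depended on single libraries. It was 11, 10 and 7 without NaCl replicate 1, 2 or 3, and 10 and 6 without 25 mg/kg replicate 1 or 3. The count of falls was 3 without NaCl replicate 1 or 3. Omitting a library of the dose itself left 4 falls for replicate 1 and 3 falls for replicate 3.

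At 50 mg/kg, 23 Zfp genes were higher than with NaCl (14.3%, against 7.09%) and 10 were lower (6.21%, against 8.01%). A log2 fold change above 0 was found in 108 (67.1%, against 50.1%), and the median was 0.27 against 0 for all genes. Groups did not overlap upwards in 41 Zfp genes (25.5%, against 16.6%) and downwards in 17 (10.6%, against 18.5%), 58 in all (36%, against 35%). An unadjusted p under 0.05 was found for 56 (34.8%, against 31.2%), and calls in either direction came to 33 (20.5%, against 15.1%). Of the 9951 tested genes with a mean count of at least 50, 7.77% rose and 9.15% fell, 16.9% in all. The count of rises was 14, 15 and 9 without NaCl replicate 1, 2 or 3. The count of falls was 5 without NaCl replicate 3 and 6 without 50 mg/kg replicate 2. Both dose comparisons use the same 3 NaCl libraries, so they are not independent of each other. In all, 36 Zfp genes passed the threshold at 1 dose or both, 15 were higher at both, 6 were lower at both and 0 went opposite ways.

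Several rises were Zfp genes without a match to the KRAB signature. Zfp622 encodes a factor of late cytoplasmic maturation of the large ribosomal subunit. It lies at chr15:25984366-25998481 in GRCm38. Its level was 25.0, 22.8 and 20.4 CPM with NaCl, 66.2, 41.4 and 59.9 CPM with 25 mg/kg and 68.1, 70.0 and 54.1 CPM with 50 mg/kg. All 6 retrorsine libraries were above all NaCl libraries. The log2 fold change was 1.30 (SE 0.20, edgeR adjusted p = 0.0048) at 25 mg/kg and 1.49 (SE 0.20, adjusted p = 0.0029) at 50 mg/kg, and neither call was lost in 22 alternative fits.

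Zfp143, an activator that binds the promoters of many widely expressed genes, stood at 13.8, 10.4 and 11.6 CPM with NaCl, 22.6, 17.6 and 28.1 CPM with 25 mg/kg and 26.2, 32.4 and 21.6 CPM with 50 mg/kg. The NaCl libraries were the lowest 3. The log2 fold change was 0.93 (SE 0.22, edgeR adjusted p = 0.025) and 1.16 (SE 0.22, adjusted p = 0.011). At 25 mg/kg the call ended when NaCl replicate 2 or 3 or 25 mg/kg replicate 1 or 3 was left out (adjusted p up to 0.10). Zfp746, known as PARIS and a substrate of the ubiquitin ligase parkin, was at 14.8, 20.3 and 14.9 CPM with NaCl, 45.4, 35.4 and 42.1 CPM with 25 mg/kg and 43.7, 24.5 and 36.2 CPM with 50 mg/kg. Its groups did not overlap at either dose, with log2 fold changes of 1.30 (SE 0.23, adjusted p = 0.0081) and 1.06 (SE 0.23, adjusted p = 0.016).

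Zfp219 was at 34.4, 38.2 and 28 CPM with NaCl, 60.7, 49.5 and 56.9 CPM with 25 mg/kg and 69, 88.6 and 56.9 CPM with 50 mg/kg, again with no overlap (log2 fold change 0.73 and 1.09, edgeR adjusted p = 0.038 and 0.0086). Zfp219 overlaps Arhgef40, with a mean count of 311, and the strand setting of the counting is not given, so reads of the pair cannot be told apart. Zfp623 rose by 1.51 and 1.46 on the log2 scale (adjusted p = 0.012 and 0.013), and its call at 25 mg/kg ended without NaCl replicate 3 or 25 mg/kg replicate 3 (adjusted p = 0.051 and 0.052). Zfp330, which encodes a cysteine-rich nucleolar protein, was at 15.9, 12.5 and 14.9 CPM with NaCl and 27.4, 27.7 and 30.2 CPM with 50 mg/kg, with no overlap (log2 fold change 0.98, SE 0.19, adjusted p = 0.011). At 25 mg/kg its value was 0.57 (adjusted p = 0.075), and it shares 34.1% of its coding 50-base words with another gene.

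Zfp281, a regulator that binds GC-rich promoters and is known from pluripotent stem cells, and Zfp830, linked to pre-mRNA splicing, were called at 50 mg/kg. Zfp281 was at 18.3, 8.79 and 11.9 CPM with NaCl and 23.7, 31.4 and 33.1 CPM with 50 mg/kg, which is 1.18 on the log2 scale (SE 0.29, edgeR adjusted p = 0.026). Zfp830, the shortest of the 161 in genomic span, was at 7.26, 4.75 and 6.02 CPM with NaCl and 13.2, 14.3 and 10 CPM with 50 mg/kg, which is 1.06 on the log2 scale (SE 0.27, adjusted p = 0.028). Groups did not overlap for either gene. The Zfp281 call ended without NaCl replicate 2 or 3 or without 50 mg/kg replicate 2 or 3 (adjusted p up to 0.098), and the Zfp830 call without NaCl replicate 2 or 3 or without 50 mg/kg replicate 1 or 2 (up to 0.092). Zfp335, needed for neural progenitors, rose at both doses by 0.91 and 0.79 (adjusted p = 0.025 and 0.039). Its call at 25 mg/kg ended without any NaCl library or without 25 mg/kg replicate 1 or 3, and at 50 mg/kg without any NaCl library, 25 mg/kg replicate 3 or 50 mg/kg replicate 1. Zfp335 overlaps Pcif1, with a mean count of 723.6.

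KRAB-bearing genes gave 8 of the 17 rises at 25 mg/kg and 8 of the 23 at 50 mg/kg. The largest called change of any Zfp gene was that of Zfp948 (chr17:21567008-21588699), at 3.16, 2.17 and 2.06 CPM with NaCl, 10.9, 8.78 and 15.1 CPM with 25 mg/kg and 14.1, 14.6 and 7.16 CPM with 50 mg/kg. Even the lowest retrorsine library was above the highest NaCl library. Zfp948 reached the count minimum through its retrorsine libraries, so its rise is not fully independent of the choice of genes. The log2 fold change was 2.24 (SE 0.34, edgeR adjusted p = 0.0044) at 25 mg/kg and 2.28 (SE 0.34, adjusted p = 0.0042) at 50 mg/kg, and neither call was lost in 22 alternative fits. Zfp612 (chr8:110079746-110092741) was at 8.40, 7.58 and 7.93 CPM with NaCl, 20.7, 15.2 and 32.2 CPM with 25 mg/kg and 30.7, 33.3 and 25.4 CPM with 50 mg/kg. The 3 NaCl libraries lay close together and below all others, and the log2 fold change was 1.51 (SE 0.26, adjusted p = 0.0066) and 1.90 (SE 0.26, adjusted p = 0.0029), likewise with no call lost.

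Zfp954 was at 5.98, 5.71 and 5.17 CPM with NaCl, 15, 12 and 15.5 CPM with 25 mg/kg and 15.4, 11 and 9.81 CPM with 50 mg/kg. Its groups were apart at both doses (log2 fold change 1.34 and 1.1, edgeR adjusted p = 0.0060 and 0.012). Zfp110, also called NRIF and known as a binding partner of the neurotrophin receptor p75, was at 13.2, 12 and 12.9 CPM with NaCl, 32.8, 24.9 and 27.6 CPM with 25 mg/kg and 39.4, 30.8 and 20.5 CPM with 50 mg/kg (log2 fold change 1.17 and 1.26, adjusted p = 0.011 and 0.0090). It too showed no overlap. Zfp747 was at 5.38, 6.67 and 5.77 CPM with NaCl, 12.7, 10.8 and 14.2 CPM with 25 mg/kg and 19.1, 21.1 and 13.5 CPM with 50 mg/kg, with log2 fold changes of 1.08 and 1.59 (adjusted p = 0.012 and 0.0029). The call at 25 mg/kg ended without NaCl replicate 3 or 25 mg/kg replicate 3 (adjusted p = 0.053 and 0.057), and 41.3% of its coding 50-base words stand in another gene.

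Zfp212, Zfp513, Zfp617 and Zfp672 completed the 15 genes higher at both doses. Zfp617 shares 64.3% of its coding 50-base words with another gene, and Zfp513 overlaps Snx17, with a mean count of 419.8, so their counts are uncertain. Zfp655 and Zfp871 passed only at 25 mg/kg and Zfp146, Zfp319, Zfp446, Zfp507 and Zfp869 only at 50 mg/kg, along with Zfp281, Zfp330 and Zfp830. Passing at 1 dose is not a difference between the doses. The highest log2 fold change at 50 mg/kg, 2.49 (SE 1.01, edgeR adjusted p = 0.13), was that of Zfp872 and did not pass. Its level was 2.22, 0.909 and 0.753 CPM with NaCl and 4.01, 15.4 and 2.04 CPM with 50 mg/kg, so the groups overlapped and 1 library stood far above the rest. The plot of levels by library shows the rises and falls that kept their libraries apart, beside Zfp36.

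**Figure D1:**
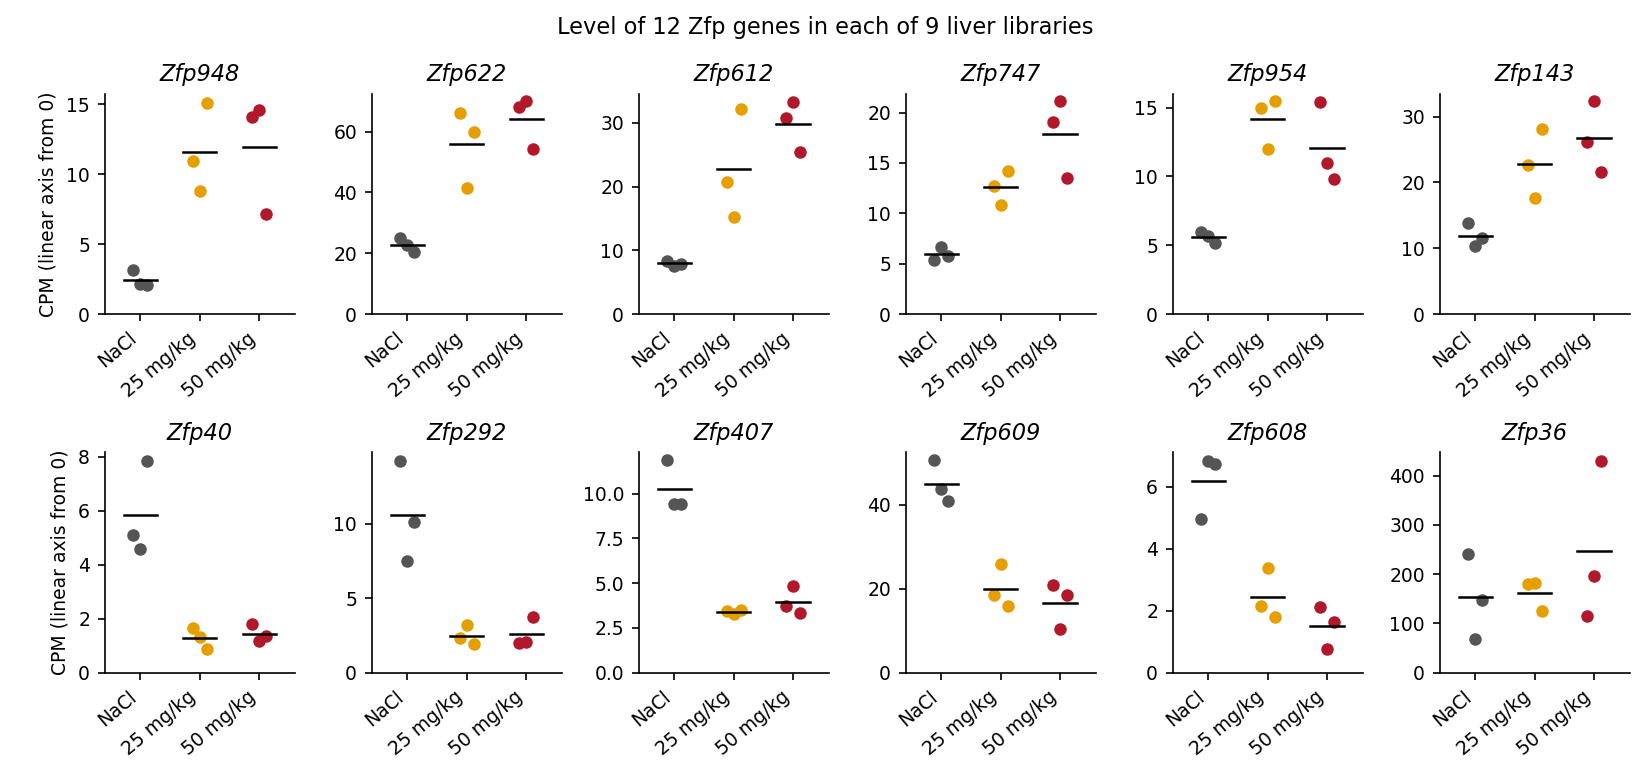
CPM of 12 Zfp genes (linear axes from 0) in the 9 libraries. Points are libraries and bars are group means, n = 3. In the first 6 panels all NaCl libraries are lowest, in Zfp40, Zfp292, Zfp407, Zfp609 and Zfp608 they are highest, and for Zfp36 the groups overlap.

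Most of the genes that fell were long. Zfp292, a large protein linked to human neurodevelopmental disease, spans 79.85 kb (chr4:34803113-34882960). It was at 14.2, 7.53 and 10.1 CPM with NaCl, 2.33, 3.19 and 1.95 CPM with 25 mg/kg and 2.00, 2.08 and 3.75 CPM with 50 mg/kg. Every retrorsine library was below every NaCl library, and its log2 fold change stood at -2.09 (SE 0.36, edgeR adjusted p = 0.0066) and -2.02 (SE 0.36, adjusted p = 0.0076). Zfp407, known in adipocytes as a regulator of glucose uptake, has the longest span, 461.7 kb on chromosome 18. Its level was 11.9, 9.40 and 9.44 CPM with NaCl, 3.47, 3.26 and 3.52 CPM with 25 mg/kg and 3.71, 4.87 and 3.34 CPM with 50 mg/kg. The groups were far apart (log2 fold change -1.58 and -1.36, adjusted p = 0.0037 and 0.0062).

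The paralogues Zfp608 (104.5 kb) and Zfp609 (135.2 kb) fell at both doses. Zfp609, which works with the cohesin loader NIPBL in neural progenitors, was at 50.5, 43.7 and 40.8 CPM with NaCl, 18.4, 25.8 and 15.8 CPM with 25 mg/kg and 20.8, 10.5 and 18.4 CPM with 50 mg/kg (log2 fold change -1.17 and -1.44, edgeR adjusted p = 0.021 and 0.0097). Zfp608 was at 4.97, 6.82 and 6.73 CPM with NaCl, 2.16, 3.39 and 1.79 CPM with 25 mg/kg and 2.13, 0.78 and 1.64 CPM with 50 mg/kg (log2 fold change -1.34 and -2.02, adjusted p = 0.048 and 0.012). Neither paralogue's groups overlapped. At 25 mg/kg the Zfp609 call ended without NaCl replicate 1 or 3 or without 25 mg/kg replicate 1 or 3 (adjusted p up to 0.088). The Zfp608 call at 25 mg/kg ended when any NaCl library, 25 mg/kg replicate 1 or 3 or 50 mg/kg replicate 3 was left out (up to 0.17).

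Zfp704 (183.1 kb), Zfp236 (99.29 kb), Zfp652 (122.4 kb), a partner of the corepressor CBFA2T3, and Zfp148 (123.5 kb), which binds GC-rich promoters, were the other long genes called. Zfp704 fell by 1.27 at each dose on the log2 scale (edgeR adjusted p = 0.033 and 0.032), a call that ended at 25 mg/kg without any NaCl library or 25 mg/kg replicate 1 or 3, and at 50 mg/kg without NaCl replicate 2 or 3 or 50 mg/kg replicate 1 or 2. At 50 mg/kg Zfp236 fell by 1.25 (adjusted p = 0.013), Zfp652 by 1.1 (adjusted p = 0.027) and Zfp148 by 0.96 (adjusted p = 0.043). The Zfp236 call ended without NaCl replicate 3 (adjusted p = 0.051). The Zfp652 call ended without any NaCl library or without 50 mg/kg replicate 2 or 3, and the Zfp148 call without any NaCl library, 25 mg/kg replicate 1 or 3, or 50 mg/kg replicate 2 or 3.

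The called falls under 75 kb were Zfp40, Zfp970 and Zfp362. Zfp40 (19.38 kb, chr17:23173869-23193252), KRAB-bearing with 16 fingers, was at 5.11, 4.6 and 7.83 CPM with NaCl, 1.65, 1.33 and 0.866 CPM with 25 mg/kg and 1.82, 1.17 and 1.36 CPM with 50 mg/kg. All 6 retrorsine libraries were below all NaCl libraries, and its log2 fold change stood at -2.19 (SE 0.36, edgeR adjusted p = 0.0061) and -2 (SE 0.36, adjusted p = 0.0082). With a mean of 50.7 reads it is also among the least counted of the 161. Zfp970 (13.4 kb) was at 70.3, 30.7 and 58.5 CPM with NaCl, 25.8, 16 and 19.5 CPM with 25 mg/kg and 28.4, 24.2 and 37.3 CPM with 50 mg/kg. It passed at 25 mg/kg (-1.38, adjusted p = 0.020), where the call ended without NaCl replicate 1 or 3 or 25 mg/kg replicate 2 or 3, and overlapped at 50 mg/kg (-0.83, adjusted p = 0.10). Zfp362 (32.96 kb) passed at 50 mg/kg, with -1.22 (adjusted p = 0.043).

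Genomic span, from the first to the last base of the gene with its introns, was therefore set against the changes. The median span of the Zfp genes was 17.1 kb (quartiles 10.8 and 29.3), shorter than the 24.3 kb (10.6 and 54) of the 9790 other genes. The shortest were Zfp830 (1.59 kb) and Zfp414 (2.689 kb). Every called rise had a span of 34.18 kb or less. Of the 14 Zfp genes over 75 kb, 5 were called lower at 25 mg/kg and 8 at 50 mg/kg, 0 were called higher, and 12 and 13 had a log2 fold change below 0. Of the 1705 other genes over 75 kb, 32.4% and 37.1% were called lower. Median log2 fold changes there were -0.58 for the Zfp genes and -0.57 for the others at 25 mg/kg, and -1.03 and -0.66 at 50 mg/kg.

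Among genes of like span, the short Zfp genes stood above other genes and the long ones did not. At 25 mg/kg the median log2 fold changes of Zfp and other genes were 0.45 and 0.23 under 10 kb, 0.38 and 0.15 from 10 to 20 kb, 0.38 and 0.03 from 20 to 40 kb, and -0.33 and -0.35 at 40 kb and over. At 50 mg/kg the pairs were 0.36 and 0.30, 0.37 and 0.18, 0.31 and 0.02, and -0.46 and -0.43. The 46 Zfp genes of 20 to 40 kb held the widest gaps, 0.35 and 0.29. Under 40 kb, 17 of 136 Zfp genes were called higher at 25 mg/kg (12.5%, against 8.59% of 6529 other genes) and 23 at 50 mg/kg (16.9%, against 10.6%). At 40 kb and over 0 of 25 were, near the 2.97% and 1.87% of 3261 other genes.

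**Figure D2:**
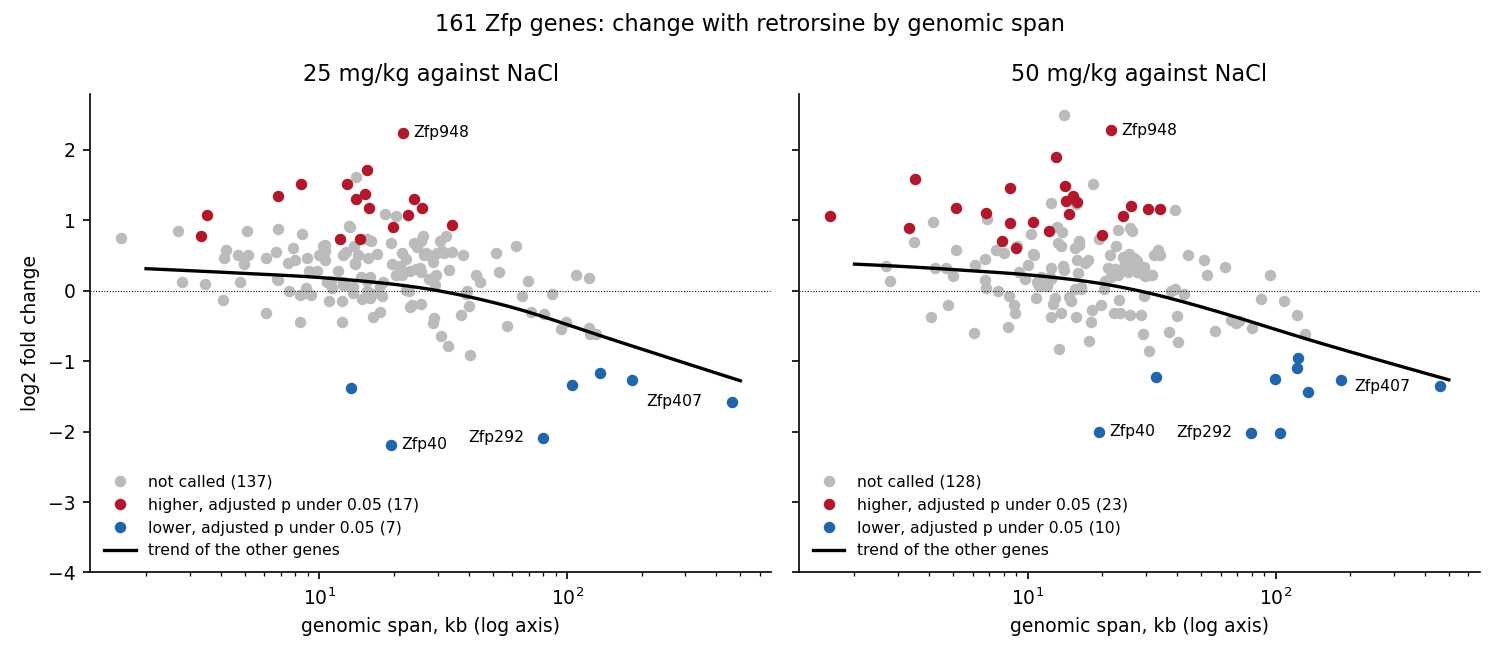
Log2 fold change of the 161 Zfp genes against genomic span in kb (log axis), at 25 mg/kg (left) and 50 mg/kg (right). Red and blue points passed adjusted p 0.05, grey points did not, and the line is the smoothed trend of the 9790 other genes. Red points lie at 34.18 kb or less and above the line, and blue points lie below it, most of them at long span.

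**Figure D3:**
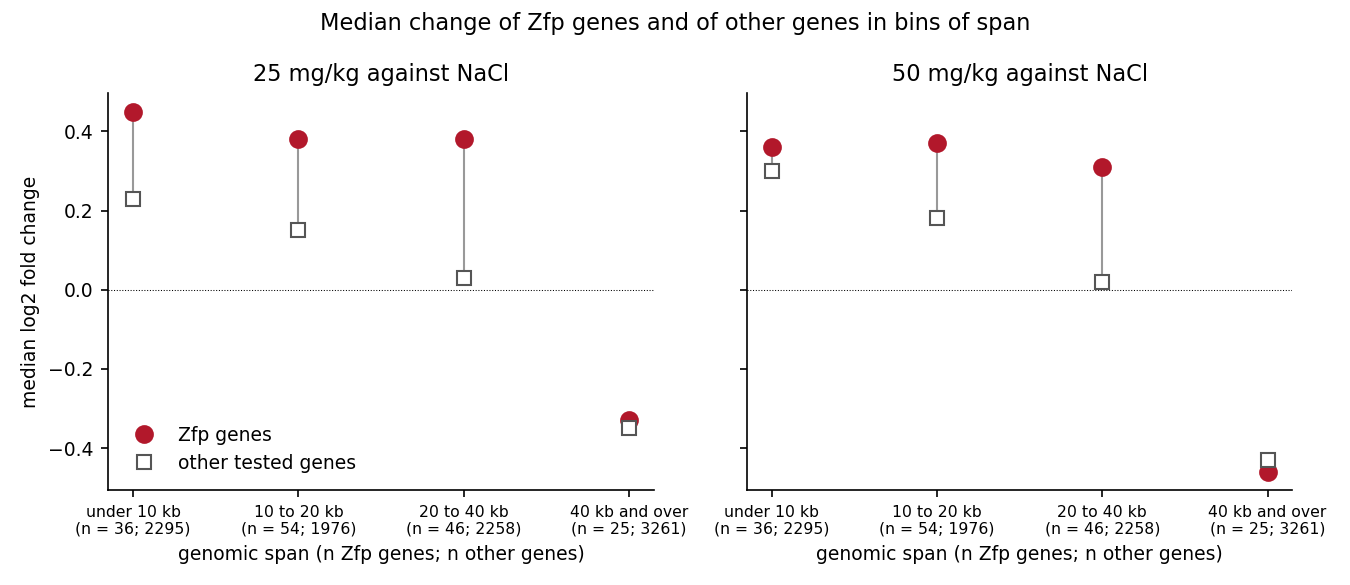
Median log2 fold change of Zfp genes (filled circles) and other tested genes (open squares) in 4 bins of genomic span, for both doses, with the number of genes in each bin below the axis. The Zfp medians are above the others in the first 3 bins and within 0.03 of them at 40 kb and over.

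The trend of the other genes was then subtracted from each Zfp gene. The median deviation from it was 0.24 at 25 mg/kg and 0.23 at 50 mg/kg, and 107 and 98 of the 161 lay above the trend. In a linear description over all genes with a mean count of at least 50, being a Zfp gene went with 0.31 higher log2 fold change at 25 mg/kg, 0.25 with span in the model and 0.29 with span, transcript length and level. At 50 mg/kg these were 0.24, 0.16 and 0.20. The slope per 10-fold longer span was -0.67 and -0.84 within the Zfp genes and -0.52 and -0.69 within the others. The correlation with log span was -0.41 over the 161 Zfp genes and -0.29 over the 9790 others at 25 mg/kg, and -0.45 in both at 50 mg/kg. Genes share the same libraries and are not independent, so these values carry no p.

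The count test was repeated with an offset that took each library's span trend, estimated on the other genes, out of every gene. At 25 mg/kg 15 Zfp genes were then higher (9.32%, against 4.65% of all tested genes) and 3 were lower (1.86%, against 3.09%). At 50 mg/kg 15 were higher (9.32%, against 4.84%) and 4 lower (2.48%, against 2.2%). Of the rises called without the offset 14 of 17 and 14 of 23 remained, and of the falls 3 of 7 and 3 of 10. The remaining falls were Zfp40, Zfp292 and Zfp970 at 25 mg/kg and Zfp40, Zfp292 and Zfp608 at 50 mg/kg. Of these, Zfp40, Zfp292 and Zfp608 reached the count minimum through their NaCl libraries, so their falls are not fully independent of the choice of genes. Among the remaining rises the same holds for Zfp948, through its retrorsine libraries. Zfp592 became a rise at both doses (0.69 and 0.67, edgeR adjusted p = 0.024 and 0.031), and Zfp809 a fall at 50 mg/kg (-0.85, adjusted p = 0.046).

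Long genes moved most under the offset. Zfp407 went from -1.58 to -0.39 at 25 mg/kg and from -1.36 to -0.17 at 50 mg/kg (edgeR adjusted p = 0.40 and 0.73). Zfp609 went to -0.57 and -0.75 (adjusted p = 0.17 and 0.080) and Zfp704 to -0.54 and -0.46 (adjusted p = 0.31 and 0.38). Zfp292 stayed at -1.74 and -1.56 (adjusted p = 0.016 and 0.026) and Zfp40 at -2.30 and -2.11 (adjusted p = 0.0079 and 0.012). Zfp948 stayed at 2.14 and 2.20 (adjusted p = 0.0079 and 0.0085), Zfp612 at 1.33 and 1.70 (adjusted p = 0.014 and 0.0070) and Zfp622 at 1.12 and 1.31 (adjusted p = 0.010 and 0.0067). Some short genes lost calls at 50 mg/kg: Zfp830 went to 0.64 (adjusted p = 0.21) and Zfp281 to 0.85 (adjusted p = 0.13). Under 10 kb, Zfp513, Zfp446, Zfp146 and Zfp319 also lost theirs, whereas Zfp747, Zfp954 and Zfp623 kept theirs. Zfp747 (3.513 kb), shorter than Zfp281 (5.152 kb), stayed at 1.25 (adjusted p = 0.010).

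**Figure D4:**
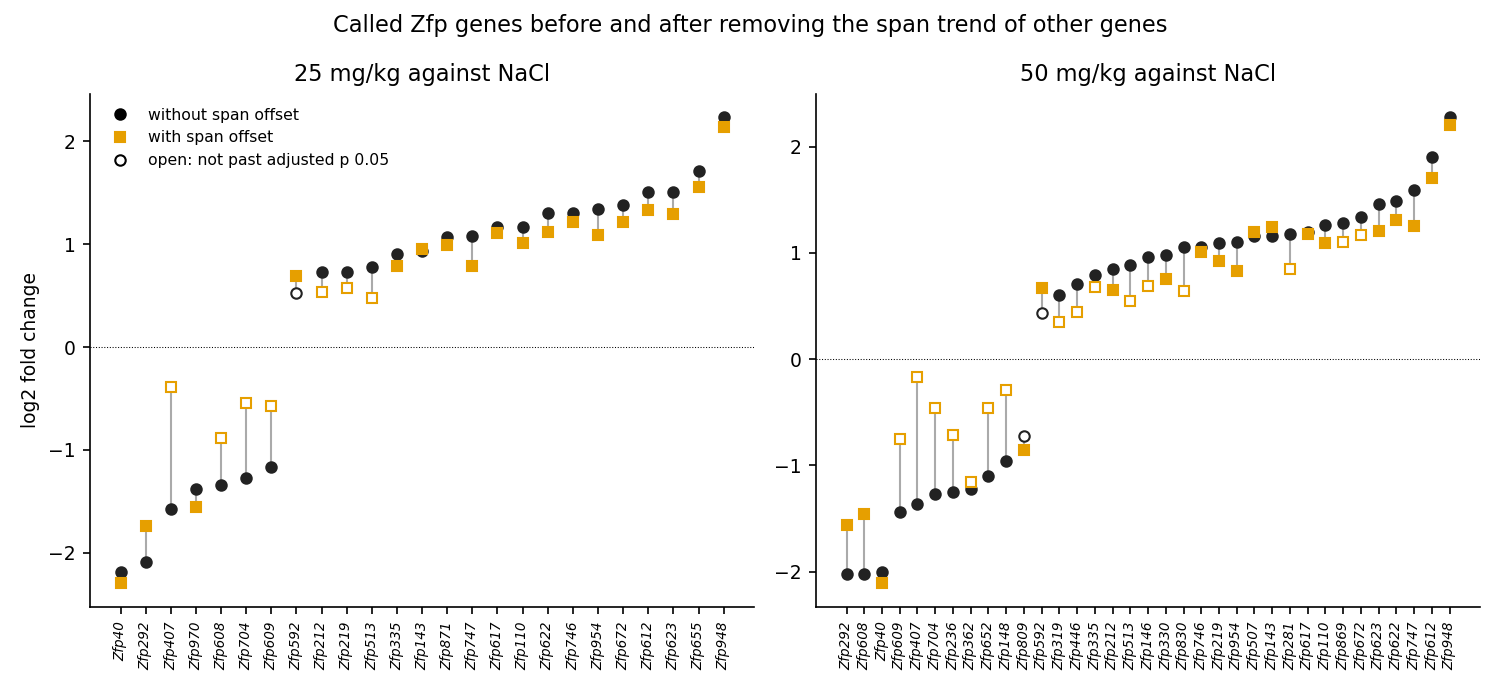
Log2 fold change of each Zfp gene called with or without the span offset, without it (circles) and with it (squares), at 25 mg/kg (left) and 50 mg/kg (right). Open symbols did not pass adjusted p 0.05. The falls of the long genes Zfp407, Zfp609 and Zfp704 shrink and open, whereas Zfp40 and Zfp948 move little.

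The pattern was followed library by library as the median log2 CPM of the Zfp genes, each gene centred on its mean over the 9 libraries. Over the 136 genes under 40 kb it was -0.32, -0.19 and -0.24 in NaCl libraries, 0.16, 0.09 and 0.18 at the lower dose and 0.33, 0.11 and -0.13 at the higher one. All NaCl libraries were below all retrorsine libraries, with 50 mg/kg replicate 3 closest to them. Over all 161 genes that library, at -0.15, was below NaCl replicate 2, at -0.09, so the groups overlapped, and over the KRAB-bearing genes it was at -0.21, below NaCl replicate 3 at -0.20. Over the 25 genes of 40 kb and over it was 0.39, 0.20 and 0.31 in NaCl libraries, -0.13, 0.06 and -0.07 at the lower dose and 0.05, -0.23 and -0.54 at the higher one, so the order was the opposite one. Other genes of like span showed the same orders: under 40 kb their medians were -0.11, -0.10 and -0.11 in NaCl libraries and -0.02 to 0.11 in retrorsine libraries, and at 40 kb and over 0.34, 0.19 and 0.30 against -0.26 to 0.02. The medians of all tested genes lay between -0.03 and 0.02.

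**Figure D5:**
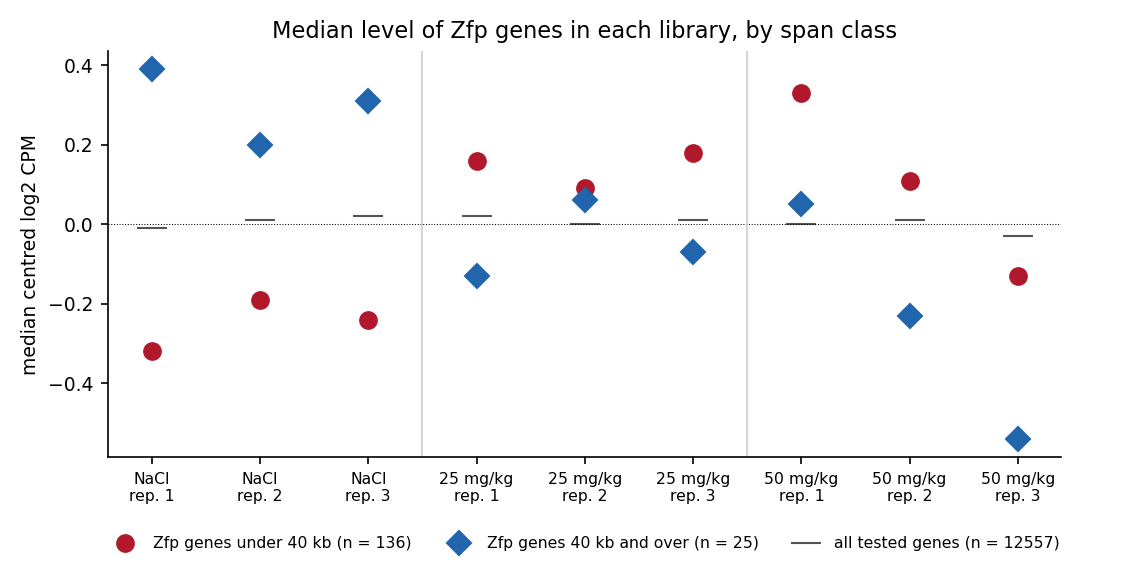
Median centred log2 CPM in each of the 9 libraries, for Zfp genes under 40 kb (circles, n = 136), Zfp genes of 40 kb and over (diamonds, n = 25) and all tested genes (dashes). The circles are lowest and the diamonds highest in the 3 NaCl libraries.

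KRAB-bearing and other Zfp genes were compared by description. The 63 with a KRAB signature had a median log2 fold change of 0.50 at 25 mg/kg and 0.35 at 50 mg/kg, and the 98 without had 0.23 and 0.22. Their median spans were 17.9 and 15.9 kb. Above the span trend the medians were 0.37 and 0.30 with KRAB and 0.16 and 0.07 without. By number of fingers, the median at 25 mg/kg was 0.20 for the 39 genes with 1 to 5, 0.31 for the 76 with 6 to 12 and 0.28 for the 41 with 13 or more. The difference between these classes was not tested.

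Zfp genes often lie in clusters. With gaps of at most 250 kb between neighbouring Zfp-named genes, 11 clusters held at least 3 of the 161, 45 in all, and 40 of the 161 were on chromosome 7. The cluster at chr6:47819266-48086593 held Zfp212 and Zfp746, which rose at both doses, among 6 genes with a median log2 fold change of 0.59 and 0.32. The cluster at chr7:127233061-127885996 held Zfp747 among 7 genes with medians of 0.63 and 0.52. No cluster held a called fall. Over all 161 genes, 10.6% were called higher and 4.35% lower at 25 mg/kg, and 14.3% and 6.21% at 50 mg/kg. Most called falls were genes over 75 kb, so few falls could be looked for among these 45. Whether clustered genes differ from the other Zfp genes was not tested.

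The Zfp genes were also read by role. The lists were chosen with earlier results of these data known, so an excess of calls in a list is a description and not a test. For the counts that follow, 5.9% of all tested genes rose and 7.56% fell at 25 mg/kg, 7.09% rose and 8.01% fell at 50 mg/kg, and the medians of all genes were 0.01 and 0. Of imprinting and retroelement repressors 10 were listed and 6 tested, with 0 called at 25 mg/kg (median 0.18) and 1 rise (16.7%) at 50 mg/kg (median 0.28). That rise was Zfp57, a guardian of imprints that missed the count minimum with a mean of 46.7 reads (log2 fold change 2.09, edgeR adjusted p = 0.027). Zfp445, the other known imprint guardian, was at 41.2, 32.2 and 41.2 CPM with NaCl, 53.2, 47.3 and 64.5 CPM with 25 mg/kg and 68.4, 52.8 and 41.9 CPM with 50 mg/kg. Its groups did not overlap, yet its values of 0.53 and 0.51 did not pass (adjusted p = 0.13 at each dose). Zfp809, which recognises proviruses of murine leukaemia virus, had -0.30 and -0.72 (adjusted p = 0.41 and 0.054). Zfp568, a repressor of Igf2 in the placenta, had 0.13 and 0.51 (adjusted p = 0.77 and 0.19). Of promoter-binding regulators 15 of 16 were tested, with 2 rises and 2 falls at 25 mg/kg (13.3% each) and 3 of each at 50 mg/kg (20% each), all described above. The share called in either direction was 26.7% and 40%, against 13.5% and 15.1% of all tested genes, and the medians were 0 and 0.22. Of 11 genes with roles in RNA, ribosomes, the spindle or ubiquitin, 1 rose at 25 mg/kg (9.09%) and 2 at 50 mg/kg (18.2%), with 0 falls and medians of 0.13 and 0.19.

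Zfp36, the most abundant of the 161, was at 242, 68.9 and 148 CPM with NaCl, 180, 182 and 125 CPM with 25 mg/kg and 115, 197 and 430 CPM with 50 mg/kg. The highest value was in 50 mg/kg replicate 3, the library with the highest neutrophil and monocyte markers, and the lowest was in NaCl replicate 2. All groups overlapped. The log2 fold change was 0.09 (SE 0.51, edgeR adjusted p = 0.93) and 0.69 (SE 0.51, adjusted p = 0.39), so a change was not detectable against this spread.

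As a list, the KRAB cofactors and heterochromatin genes had medians somewhat below those of all genes, whereas Trim28 itself went the other way. Of 32 cofactor and heterochromatin genes tested, 0 rose and 2 fell at 25 mg/kg (6.25% lower, against 7.56% of all tested genes), with a median of -0.16 against 0.01 for all genes. The higher dose gave 1 rise (3.12%, against 7.09%) and 5 falls (15.6%, against 8.01%), with a median of -0.12 against 0. Trim28, the corepressor that KRAB boxes bind, was at 86.5, 112 and 93.8 CPM with NaCl, 163, 118 and 142 CPM with 25 mg/kg and 156, 210 and 127 CPM with 50 mg/kg. Its groups did not overlap. It passed at 50 mg/kg (log2 fold change 0.75, SE 0.21, edgeR adjusted p = 0.041) and not at 25 mg/kg (0.53, adjusted p = 0.13), and the call was lost in 14 of 22 alternative fits, among them those without any NaCl library, 25 mg/kg replicate 1 or 3, or 50 mg/kg replicate 1 or 2. Setdb1, the H3K9 methyltransferase that Trim28 recruits, had values of 0.05 and -0.07 (adjusted p = 0.89 and 0.81).

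The called cofactor falls spanned from 38.3 kb (Dnmt3b) and 48.3 kb (Cbx5) to 105 kb (Atf7ip), 130 kb (Ehmt1) and 132 kb (Atrx). Ehmt1, an H3K9 methyltransferase, was at 29.2, 33.7 and 29.1 CPM with NaCl, 16.2, 17.0 and 11.9 CPM with 25 mg/kg and 13.7, 16.8 and 15.2 CPM with 50 mg/kg (log2 fold change -1.03 and -1.01, edgeR adjusted p = 0.0067 and 0.0075). Its groups were apart, and the span offset ended both calls. Dnmt3b, a de novo DNA methyltransferase, had -1.41 and -1.19 (adjusted p = 0.0093 and 0.017), and the second call ended without NaCl replicate 2 (adjusted p = 0.056). Atrx, Cbx5 and Atf7ip, which act in heterochromatin, had -0.96, -0.83 and -0.70 at 50 mg/kg (adjusted p = 0.012, 0.042 and 0.032). The Atf7ip value was 0.17 with the length offset. The Atrx call was lost in 5 of 22 alternative fits, with values from -1.07 to -0.02. The only single library whose omission ended it was NaCl replicate 3. The Cbx5 and Atf7ip calls ended without any NaCl library, 25 mg/kg replicate 3, or 50 mg/kg replicate 2 or 3.

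Other zinc finger families with a mean count of at least 50 were set beside the Zfp genes, against the same shares of all tested genes (5.9% higher and 7.56% lower at 25 mg/kg, 7.09% and 8.01% at 50 mg/kg). Of 14 Zscan and Zkscan genes, whose median span was 15.7 kb, 3 rose at 25 mg/kg (21.4%) and 4 at 50 mg/kg (28.6%), 0 fell, and the medians were 0.38 and 0.29. Of 32 Zbtb genes (20.1 kb), 2 rose (6.25%) and 3 fell (9.38%) at 25 mg/kg, near the share of all genes, and 3 rose (9.38%) and 4 fell (12.5%) at 50 mg/kg, with medians of 0.13 and -0.11. Of 12 Klf genes (12.1 kb), 1 rose and 1 fell (8.33% each) at 25 mg/kg, and 3 rose (25.0%) and 2 fell (16.7%) at 50 mg/kg, with medians of 0.15 and 0.37. These families were not tested against the Zfp genes.

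Between the doses, 0 of the 161 Zfp genes were called (1 of all tested genes, 0.00796%) by edgeR, and likewise 0 by DESeq2 and by limma-voom. At an unadjusted p under 0.05 there were 10 Zfp genes (6.21%, against 8.59% of all tested genes). The median log2 fold change of 50 against 25 mg/kg was -0.06, against -0.01 for all genes, and 65 Zfp genes (40.4%, against 49%) lay above 0. The lowest p-values were those of Zfp236 (-0.81, SE 0.25, adjusted p = 0.55) and Zfp217, a corepressor-associated oncoprotein in breast cancer (1.15, SE 0.37, adjusted p = 0.55). Zfp217 was at 28.1, 17.5 and 19.6 CPM with 25 mg/kg and 32.7, 31.7 and 80.7 CPM with 50 mg/kg, and its highest value was again in 50 mg/kg replicate 3. Within the role lists the lowest p-values were those of Zfp217 and Zfp516 (0.77, adjusted p = 0.55) among promoter-binding regulators, Zfp809 (-0.42, adjusted p = 0.65) and Zfp568 (0.37, adjusted p = 0.73) among repressors of imprinted loci and retroelements, and Zfp598 (0.62, adjusted p = 0.59) and Zfp638 (-0.51, adjusted p = 0.68) among the RNA and ribosome genes.

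Since several Zfp genes moved together, the 250 bases before the RefSeq start were searched on both strands for 5 motifs in the 131 Zfp genes and the 10013 tested genes that had such a window. TGACNNNGC, the core of the antioxidant response element, was found in 15.3% of the Zfp genes and 13.8% of all, the ETS core CCGGAAG in 19.1% and 14.9%, the E-box CACGTG in 5.34% and 9.76%, the AP-1 site TGANTCA in 5.34% and 5.88%, and the ATF and CREB palindrome TGACGTCA in 3.82% and 2.87%. Of the 22 Zfp genes with a window that rose at either dose, 5 held TGACNNNGC (22.7%, against 13.8% of all), 4 the ETS core (18.2%, against 14.9%), 3 the E-box (13.6%, against 9.76%), 3 the AP-1 site (13.6%, against 5.88%) and 1 the palindrome (4.55%, against 2.87%). A match is not a site. For reading beside the values above, the windows of the rise Zfp622 and the fall Zfp292 are given 5′ to 3′ from RefSeq (GRCm38.p6, chr15:25984116-25984365 on the plus strand and chr4:34882949-34883198 on the minus strand), with matches in capitals.
Zfp622: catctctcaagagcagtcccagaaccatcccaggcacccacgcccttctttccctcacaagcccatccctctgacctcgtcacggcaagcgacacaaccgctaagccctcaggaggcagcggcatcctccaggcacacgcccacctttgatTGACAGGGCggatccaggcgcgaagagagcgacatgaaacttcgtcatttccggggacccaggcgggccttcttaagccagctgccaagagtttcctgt
Zfp292: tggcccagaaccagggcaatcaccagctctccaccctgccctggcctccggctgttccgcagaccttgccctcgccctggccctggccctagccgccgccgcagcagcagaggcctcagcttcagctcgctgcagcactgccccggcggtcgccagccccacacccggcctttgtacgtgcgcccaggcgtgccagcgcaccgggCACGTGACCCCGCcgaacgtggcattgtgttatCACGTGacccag
Zfp622 held 1 TGACNNNGC match. Zfp292 held 2 E-boxes, the first sharing bases with a TGACNNNGC match. The windows held 14 and 21 CG pairs.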

How the data were processed

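Poly(A) RNA from mouse liver was sequenced in 9 libraries, grouped from the sample labels. The authors deposited 1 table with a whole-number read count and an FPKM per gene and library, the counts not normalized, with gene positions and lengths. The submitters' processing notes name HISAT2 and the build GRCm38. The counting tool, annotation, strand handling and aligner version were not given in the sources used here. No molecular identifiers are described, so counts may include PCR copies. FPKM served only to compare levels between genes.

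The deposited counts went into edgeR 4.0.16 (R 4.3.3): filterByExpr kept 12557 genes, libraries were scaled by TMM, and each group had its own mean in a fit of all 9 libraries with 6 residual degrees of freedom. The quasi-likelihood F test was adjusted after Benjamini-Hochberg over all genes tested, with a threshold of 0.05. SE was taken as the size of the log2 fold change divided by the root of F. CPM used TMM-scaled totals, and log2 CPM a prior count of 2. The span trend was a lowess (fraction 0.5, statsmodels 0.14.6) over the 9790 other genes. All 161 gene IDs were found in GENCODE M21, 159 with the same start and end. Finger and KRAB matches were made on translated GENCODE M21 coding sequences, since no protein table was used here. Shared 50-base words compare the coding sequence of a Zfp gene with all GENCODE M21 transcripts of other genes, coding or not. The fits were tested on simulated data first.

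The members and lists were chosen with earlier results of these data known. Per comparison, up to 8 calls in each direction were named by adjusted p, with the extremes of level, span and finger number, the genes at the count minimum, called or lowest-p members of the role lists, Trim28, Setdb1, called cofactors and Zfp36. The remaining called genes were named after their values were seen. Alternatives were DESeq2 1.42.0, limma-voom (limma 3.58.1), other scalings, filters and member rules, offsets for span and length, a block on the replicate number, and fits omitting each library.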

Additional observations from a re-analysis of the deposited data

How the results depend on the processing

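The median log2 fold change of the Zfp genes stayed above 0 at both doses in every alternative run, and without each library in turn it ran from 0.24 to 0.36 at 25 mg/kg, from 0.21 to 0.33 at 50 mg/kg and from -0.17 to 0.03 between the doses. Counts of calls moved more. Without each library in turn, rises ran from 6 to 19 and falls from 3 to 7 at 25 mg/kg, rises from 9 to 28 and falls from 5 to 10 at 50 mg/kg, and 0 were called between the doses. Rises at 25 mg/kg were 27 with DESeq2, 26 with a length offset, 11 without NaCl replicate 1 and 50 mg/kg replicate 2 (chosen after seeing the data) and 10 among genes overlapping no other gene (likewise). Falls at 25 mg/kg were 3 with the span offset, with span and length, at a mean count of at least 100 and among genes overlapping no other gene, and 2 under 40 kb. Rises at 50 mg/kg were 15 with the span offset, 13 with span and length, 8 without that pair of libraries and 14 among genes overlapping no other gene. Falls at 50 mg/kg were 4 with the span offset, with span and length, without that pair and among genes overlapping no other gene, 5 at a mean count of at least 100 and 2 under 40 kb. Subsets hold fewer genes; otherwise the cause was not tested.

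Without each library or that pair, values ran from -0.27 to 0.58 for Zfp36 at 25 mg/kg, from -0.06 to 0.97 for Zfp36 between the doses and from -0.16 to 0.08 for Setdb1 at 50 mg/kg. Signs turned for uncalled values of Zfp36 at 25 mg/kg (-0.01 with the length offset and without 25 mg/kg replicate 2, -0.27 without NaCl replicate 2, -0.23 with the span offset, -0.26 with span and length) and between the doses (-0.06 without 50 mg/kg replicate 3). At 50 mg/kg they turned for Setdb1 (0.12 with the length offset, 0.08 without 50 mg/kg replicate 3, 0.00 with span and length) and for the called Atf7ip (0.17 with the length offset, 0.01 with span and length). The cause was not tested.

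Correlations of the deviations of same-numbered libraries ran from -0.2303 to 0.1357, within the range of the other pairs (-0.2525 to 0.2948). With 3 libraries per group this cannot exclude a pairing or shared batch, and the main fit used no pairing. With a replicate block, rises were 11 at 25 mg/kg and 15 at 50 mg/kg. With 3 libraries per group, small changes of weakly expressed genes were not detectable.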
